A study of Mus musculus with 10 samples.

Results

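The genes described here mark the cells of retinal blood vessels. They are 10 genes of the 53974 in the RNA-seq table, chosen by symbol. Endothelial cells are marked by 7 of them: *Pecam1*, *Cdh5*, *Cldn5*, *Kdr*, *Flt1*, *Tek* and *Vwf*. Mural cells, which are the pericytes and smooth muscle cells around the endothelium, are marked by the other 3: *Pdgfrb*, *Rgs5* and *Acta2*. Chromatin regions within 1000 bp of an end of these genes were looked for among the 16600 regions of the ATAC-seq comparison and in the peak list of each library.

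All mice were C57BL/6, aged 8-10 weeks, and carried floxed *Arid1a* alleles (*Arid1a* fl/fl). ARID1A is part of SWI/SNF, a complex that moves nucleosomes. Mice received AAV2-GFP (WT, genotype *Arid1a* fl/fl) or AAV2-Cre (cKO, genotype *Arid1a* del/del) in the vitreous body, and the optic nerve of every mouse was crushed (ONC) 2 weeks later. Retinas were taken 3 days after ONC, and live (DAPI-negative) cells that bound an antibody to Thy1.2 were sorted. The labels call these cells retinal ganglion cells (RGCs). For RNA-seq there were 3 WT and 3 cKO libraries, and for ATAC-seq 2 of each label. Retinas of several mice were pooled for each library. The CMV promoter of the virus restricts Cre to no cell type, and the sort was aimed at RGCs, not at vessels.

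Retinal vessels are lined by endothelial cells whose junctions form the inner blood-retina barrier, and pericytes wrap the capillaries more densely in the retina than in most tissues. VEGF-A acts through *Kdr* (VEGFR2), the receptor that drives endothelial growth, while *Flt1* (VEGFR1) binds VEGF-A with higher affinity and acts largely as a trap. *Tek* (TIE2) is the receptor of the angiopoietins, and *Pdgfrb*, on pericytes, receives PDGF-B made by the endothelium. In the retina *Kdr* is also made by Mueller glia and some neurons, so its RNA alone does not identify an endothelial cell.

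Of the 6 members whose RefSeq promoter was used, the 3 whose window an ATAC-seq peak overlapped in some library are shown. Each is the 250 bases before the RefSeq start on GRCm38.p6, with motifs in capitals. The spans of *Kdr* and *Flt1* in the gene table reach past these windows. *Kdr* lies on the minus strand, at chr5:75978456-75978705, *Flt1* on the minus strand at chr5:147726012-147726261, and *Cldn5* on the plus strand at chr16:18776597-18776846.
Kdr: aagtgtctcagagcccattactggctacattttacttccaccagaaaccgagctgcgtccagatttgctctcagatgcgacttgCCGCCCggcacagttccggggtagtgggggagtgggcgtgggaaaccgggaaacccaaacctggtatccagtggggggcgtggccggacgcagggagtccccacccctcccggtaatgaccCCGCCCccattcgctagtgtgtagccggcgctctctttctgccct
Flt1: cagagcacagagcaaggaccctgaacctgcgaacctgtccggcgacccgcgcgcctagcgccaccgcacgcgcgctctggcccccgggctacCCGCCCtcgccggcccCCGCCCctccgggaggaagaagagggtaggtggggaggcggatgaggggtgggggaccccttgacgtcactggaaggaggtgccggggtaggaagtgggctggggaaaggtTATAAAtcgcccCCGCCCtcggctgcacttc
Cldn5: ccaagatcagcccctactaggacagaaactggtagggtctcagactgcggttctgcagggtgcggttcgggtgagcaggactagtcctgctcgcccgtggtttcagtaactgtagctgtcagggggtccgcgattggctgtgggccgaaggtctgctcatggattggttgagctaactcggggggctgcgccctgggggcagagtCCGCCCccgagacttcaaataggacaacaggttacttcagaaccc
The motifs searched, on both strands, were the TATA element TATAAA, the GC box GGGCGG, the ETS-type motif CAGGAA and the strict CArG box (CC, 6 bases of A or T, GG). No match overlapped a match of another motif. In the runs shown, every GC box lies on the opposite strand and so reads as CCGCCC. *Kdr* held 2 GC boxes, at 166 to 161 and 45 to 40 bases before the start. *Flt1* held 3 GC boxes and TATAAA at 31 to 26 bases before the start. *Cldn5* held 1 GC box, at 45 to 40 bases before the start. GGGCGG occurred in 32.7% of the 32851 mouse promoters of this length and TATAAA in 12.4%. CAGGAA, present in 25.7% of promoters, was not found in these 3 windows. Other forms of ETS site were not searched, so these windows cannot be said to lack one. The windows were 61.6%, 70.4% and 59.6% G and C for *Kdr*, *Flt1* and *Cldn5*, above the median of 52.4% over all promoters. Promoters of *Rgs5*, *Tek* and *Acta2* were also in the table. *Rgs5* held 1 CAGGAA, *Tek* held 2, and *Acta2* held none of the 4 motifs as searched. None of the 6 promoters held a strict CArG box, which 1.47% of promoters hold. Forms with a G or C among the 6 inner bases were not searched, and the *Acta2* window holds such runs, as in ccctatatgg. *Pecam1*, *Cdh5*, *Vwf* and *Pdgfrb* were not matched.

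The labels were checked before the members were compared. *Arid1a* RNA was 18.8, 11.7 and 14.1 TPM (a transcript level scaled to transcript length and to a fixed total per library) in the libraries labelled WT and 18.8, 27.9 and 25.0 TPM in those labelled cKO. The difference in log2(TPM + 1) was 0.66 (standard error 0.28, adjusted p = 0.274, limma), so the targeted RNA did not fall under the label cKO, and every direction below rests on the labels. A level per gene does not show whether part of the transcript was lost. The authors reported lower ARID1A staining in Tuj1-positive retinal cells after AAV2-Cre. The RGC factor *Pou4f2* was listed at 0 in 5 of 6 libraries. The summed level of 11 RGC markers was 141 to 200 TPM (WT) and 216 to 242 TPM (cKO), against 12376 to 17291 TPM (WT) and 25382 to 48122 TPM (cKO) for 6 rod markers. The RGC sum includes *Thy1*, the antigen of the sort, which is also in the T cell list. *Thy1* was 88.5, 51.9 and 62.7 TPM in WT and 106, 94.4 and 129 TPM in cKO. It was the only tested RGC marker whose labels did not overlap. Most of the RGC sum in every library came from *Thy1* and *Isl1*. *Isl1* overlapped, with 51.9, 98.0 and 60.9 TPM in WT and 104, 91.1 and 55.8 TPM in cKO. Sums of 5 Mueller glia markers were 5630 to 12024 TPM (WT) and 5539 to 13566 TPM (cKO), of 8 myeloid markers 1387 to 2038 TPM and 530 to 718 TPM, and of 8 T cell markers 341 to 888 TPM and 167 to 283 TPM. Erythrocyte markers summed to 1353 TPM in WT replicate 3 and to between 94.3 and 306 TPM in the other 5 libraries. The platelet and megakaryocyte markers, which matter for *Pecam1* and *Vwf*, summed to 2.49 to 4.59 TPM, with *Gp9* listed at 0 in all 6 libraries. The parts of these cell types in the differences below were not tested unless a value is given beside them. In bulk libraries, fewer cells of a type and less RNA per cell cannot be told apart.

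None of the 10 members rose or fell at an adjusted p under 0.05. Past the filter of at least 1 TPM in 3 or more libraries were 7 members, and their log2 differences (cKO minus WT) were all below 0, with a median of -0.52. Among all 17555 genes tested the median was 0.16, and 38.9% lay below 0. Without WT replicate 2 the median of the members was -1.02. *Cldn5* was the only member lower at an unadjusted p under 0.05 and the only member whose labels did not overlap. Over all genes tested, 6.45% were lower at that p and 7.18% lay lower without overlap. At the adjusted p, 0.0057% of genes (1 gene) were higher and 0% were lower, so the absence of called members is shared with nearly all genes. With the replicate number as a block, 3 members were lower at an unadjusted p under 0.05 (*Cldn5*, *Pecam1* and *Rgs5*), with adjusted p of 0.157, 0.202 and 0.110 (limma). Without WT replicate 2 there were 4, *Acta2* joining these 3, and without WT replicate 3, or without cKO replicate 3, there were none. Of all 17555 genes tested, 1495 were lower at that p with the block. The number was 1386 without WT replicate 2, 900 without WT replicate 3 and 1220 without cKO replicate 3.

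The members were far apart in level. Their means over 6 libraries ran from *Kdr* (359 TPM) through *Rgs5* (176), *Flt1* (101), *Pdgfrb* (22.2), *Cldn5* (4.18), *Pecam1* (3.11), *Acta2* (2.18), *Tek* (0.525) and *Cdh5* (0.258) to *Vwf* (0.191 TPM). Of the 9 neighbouring pairs in this order, only *Flt1* with *Pdgfrb* and *Pdgfrb* with *Cldn5* had ranges over the libraries that did not overlap. *Kdr* exceeded *Rgs5* in 6 of 6 libraries although their ranges overlapped, while *Rgs5* exceeded *Flt1* in 4 of 6. The endothelial members did not have a common level: *Kdr* and *Flt1* lay far above *Cldn5* and *Pecam1*, and the endothelial cadherin *Cdh5* was under 1 TPM in every library.

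**Figure D1:**
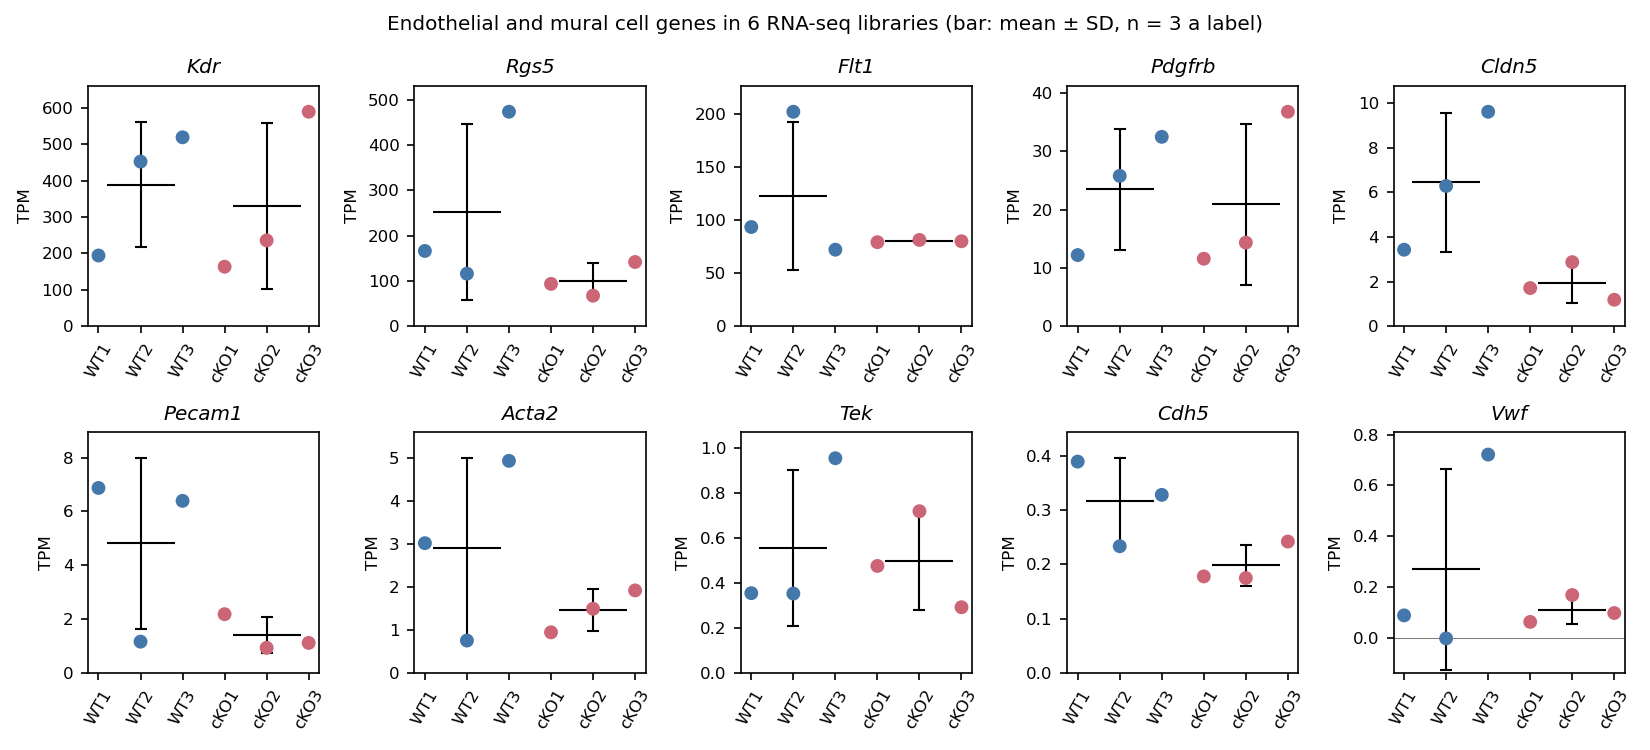
TPM of each of the 10 genes (vertical axis, from 0 or just below) in the 6 RNA-seq libraries, blue for the label WT and red for the label cKO, with the mean and SD of the 3 libraries of each label. *Cldn5* is the only gene whose red points all lie below its blue points, and *Tek*, *Cdh5* and *Vwf* stay under 1 TPM throughout.

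The VEGF receptors were the highest endothelial members. *Kdr* was 194, 453 and 519 TPM in WT replicates 1, 2 and 3 and 164, 236 and 590 TPM in cKO replicates 1, 2 and 3. Its lowest and highest libraries carried the same label, cKO, and the labels overlapped widely. The means were 389 ± 172 TPM (WT, SD, n = 3) and 330 ± 228 TPM (cKO, SD, n = 3), a log2 difference of -0.33 (95% interval -1.65 to 0.98, adjusted p = 0.778, limma). The difference of *Kdr* was 0.06 without cKO replicate 1 and -0.86 without cKO replicate 3. The interval over all 6 libraries allows a change of more than 1 log2 unit downward and nearly 1 upward. Among all genes tested, *Kdr* stood between the 94.3 and 98.9 percentile in every library.

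*Flt1* was 93.5, 202 and 72.2 TPM in the WT libraries and 79.2, 81.3 and 80.1 TPM in the cKO libraries. The 3 cKO values were nearly equal, and WT replicate 2 stood far above the other 5 libraries. The means were 123 ± 69.7 TPM (WT, SD, n = 3) and 80.2 ± 1.07 TPM (cKO, SD, n = 3), and the log2 difference was -0.46 (95% interval -1.35 to 0.43, adjusted p = 0.546, limma). Without WT replicate 2 the difference of *Flt1* was -0.03, and without WT replicate 3 it was -0.77. *Kdr* exceeded *Flt1* in all 6 libraries, but the libraries highest in each receptor were not the same ones.

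*Tek*, the angiopoietin receptor, was low in every library, with 0.355, 0.353 and 0.957 TPM in WT and 0.476, 0.720 and 0.292 TPM in cKO. The labels overlapped (exact two-sided permutation test of the means, p = 0.8), and the smallest p that 3 libraries against 3 can give is 0.1. *Tek*, *Cdh5* and *Vwf* did not pass the filter, since no library reached 1 TPM of any of them. With no filter their log2 differences were -0.04, -0.14 and -0.15 (adjusted p = 0.938, 0.626 and 0.750, limma).

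Junction and adhesion genes were much lower than the VEGF receptors. *Cldn5*, the claudin that seals the tight junctions of barrier vessels, was 3.43, 6.28 and 9.61 TPM in the WT libraries and 1.71, 2.87 and 1.18 TPM in the cKO libraries. Every cKO value lay below every WT value. The means were 6.44 ± 3.09 TPM (WT, SD, n = 3) and 1.92 ± 0.863 TPM (cKO, SD, n = 3), a log2 difference of -1.30 (95% interval -2.27 to -0.33). The unadjusted p was 0.0158 and the adjusted p 0.180 (limma), so *Cldn5* was not called, and the exact permutation test gave p = 0.1. The unadjusted p of *Cldn5* was above 0.05 without WT replicate 3 (0.0544, adjusted p = 0.354, limma) and without cKO replicate 3 (0.0510, adjusted p = 0.247, limma).

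*Pecam1* (CD31) is an adhesion molecule of endothelial junctions that platelets and some leukocytes carry too. It was 6.87, 1.16 and 6.39 TPM in the WT libraries and 2.18, 0.926 and 1.11 TPM in the cKO libraries. WT replicate 2 lay among the cKO values, and the other WT libraries lay above them. The log2 difference was -1.09 (95% interval -2.38 to 0.20, adjusted p = 0.331, limma), and without WT replicate 2 it was -1.70 (adjusted p = 0.0908, limma). The T cell and myeloid markers given above were also lower in sum in each cKO library than in each WT library, and their part in the values of *Pecam1* was not tested.

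*Cdh5* (VE-cadherin), which holds endothelial adherens junctions together, was 0.390, 0.234 and 0.329 TPM in WT and 0.178, 0.175 and 0.242 TPM in cKO. Only cKO replicate 3 and WT replicate 2 kept the labels from separating (exact two-sided permutation test, p = 0.2). *Vwf*, the clotting factor stored by endothelial cells and platelets, was 0.0902, 0 and 0.721 TPM in WT and 0.0647, 0.170 and 0.0995 TPM in cKO (exact permutation p = 0.9). *Cdh5* did not exceed 0.390 TPM in any library, and *Vwf* did not exceed 0.721 TPM.

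Among mural members, *Rgs5*, a regulator of G protein signaling that is abundant in pericytes, was the highest. It was 166, 116 and 473 TPM in the WT libraries and 93.4, 67.4 and 142 TPM in the cKO libraries. WT replicate 3, also the library with the highest erythrocyte sum, stood above all others, and the labels overlapped at WT replicate 2. The log2 difference was -1.11 (95% interval -2.38 to 0.16, adjusted p = 0.320, limma), and without WT replicate 3 it was -0.52 (adjusted p = 0.551, limma). The means were 252 ± 193 TPM (WT, SD, n = 3) and 101 ± 37.7 TPM (cKO, SD, n = 3).

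*Pdgfrb*, the PDGF-B receptor of pericytes, was 12.2, 25.8 and 32.5 TPM in WT and 11.6, 14.3 and 36.8 TPM in cKO. As with *Kdr*, both the lowest and the highest library were labelled cKO. The log2 difference was -0.23 (95% interval -1.46 to 0.99, adjusted p = 0.839, limma), and it ran from -0.71 without cKO replicate 3 to 0.08 without cKO replicate 1. *Acta2*, the smooth muscle actin of arteriolar mural cells, was 3.02, 0.750 and 4.94 TPM in WT and 0.942, 1.49 and 1.92 TPM in cKO. WT replicate 2 was its lowest library of all 6. The log2 difference of *Acta2* was -0.52 (95% interval -1.65 to 0.61, adjusted p = 0.595, limma), without WT replicate 2 it was -1.02 (adjusted p = 0.185, limma), and without WT replicate 3 it was -0.13.

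**Figure D2:**
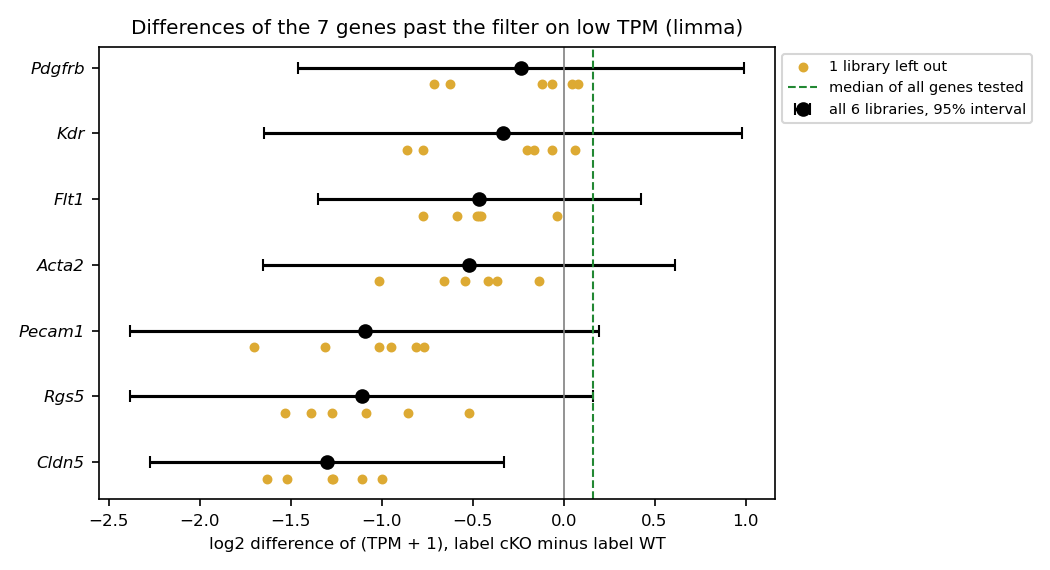
Differences in log2(TPM + 1), cKO minus WT, of the 7 genes past the filter (black points, with 95% intervals from limma) and the same difference with 1 library left out (yellow points). The green dashed line marks the median of all genes tested, 0.16. Only the interval of *Cldn5* lies wholly below 0, and the yellow points of *Kdr* and *Pdgfrb* fall on both sides of 0.

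The members did not share a pattern over the libraries. WT replicate 3 was the highest library for 5 members (*Cldn5*, *Tek*, *Vwf*, *Rgs5* and *Acta2*), WT replicate 1 for 2 (*Pecam1* and *Cdh5*), WT replicate 2 for *Flt1*, and cKO replicate 3 for *Kdr* and *Pdgfrb*. The lowest library of *Flt1* was WT replicate 3, the highest of those 5 members. From lowest to highest library, levels spanned 2.23-fold for *Cdh5*, 2.80-fold for *Flt1*, 7.02-fold for *Rgs5*, 7.42-fold for *Pecam1* and 8.11-fold for *Cldn5*. Summed over the 7 endothelial members, of which *Kdr* makes up most, the level was 299, 663 and 610 TPM in WT and 247, 322 and 673 TPM in cKO. Summed over the 3 mural members it was 181, 142 and 511 TPM in WT and 106, 83.2 and 180 TPM in cKO. Both sums overlapped between the labels.

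*Kdr* and *Pdgfrb* put the 6 libraries in the same order as each other, and that order differed from the one of the summed Mueller glia markers (*Rlbp1*, *Glul*, *Slc1a3*, *Aqp4* and *Dkk3*) only in that WT replicate 1 and cKO replicate 2 changed places. That sum was 5630, 10775 and 12024 TPM in WT and 5539, 5588 and 13566 TPM in cKO, a span of 2.45-fold. As a share of it, *Kdr* was 3.45%, 4.20% and 4.32% in WT and 2.96%, 4.22% and 4.35% in cKO, which spanned 1.47-fold against 3.60-fold in TPM. *Pdgfrb* was 0.217%, 0.239% and 0.270% in WT and 0.209%, 0.257% and 0.271% in cKO, and its span went from 3.18-fold to 1.30-fold. The span of *Rgs5* also fell, from 7.02-fold in TPM to 3.77-fold as a share, but stayed wider. As a share the spans grew for *Flt1* (2.80-fold to 3.18-fold) and *Cldn5* (8.11-fold to 9.15-fold). They also grew for *Pecam1* (7.42-fold to 14.9-fold) and *Acta2* (6.59-fold to 7.71-fold). This ratio was chosen after the values had been seen, and the part of Mueller glia in the levels of *Kdr* and *Pdgfrb* was not tested.

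**Figure D3:**
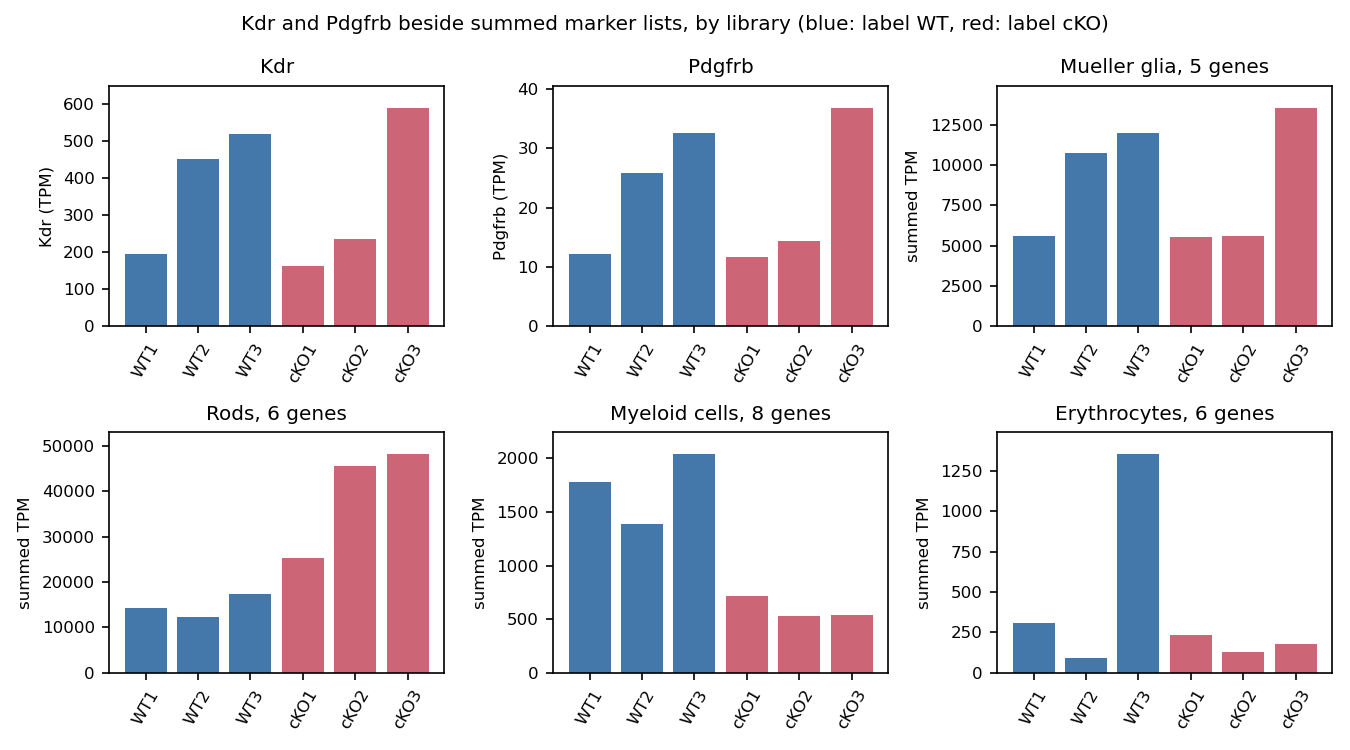
Bars give, for each of the 6 libraries, the TPM of *Kdr* and *Pdgfrb* and the summed TPM of markers of Mueller glia, rods, myeloid cells and erythrocytes, blue for WT and red for cKO, on axes that start at 0. *Kdr*, *Pdgfrb* and the Mueller glia sum are all highest in cKO replicate 3 and lowest in cKO replicate 1, while the rod and myeloid sums separate the labels and the erythrocyte sum is highest in WT replicate 3.

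The genes whose levels followed the average pattern of the 4 tested endothelial members most closely were sought over the 6 libraries. The measure was the root mean square distance between profiles of log2(TPM + 1), each centred on its own mean over the 6 libraries, with the members left out. The 5 nearest were *Mapre1* (0.0653), a microtubule end-binding protein, *Il1rl2* (0.0723), an interleukin-36 receptor, *Ifnar2* (0.0865), an interferon receptor chain, *Tgm2* (0.0929), a transglutaminase, and *Tcf19* (0.0956). The members lay farther from that average, from 0.430 for *Cldn5* to 0.712 for *Pecam1*, although 4 of them formed it, and the median over all genes tested was 0.648.

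The other vessel genes came from 6 lists of 78 genes in all, of which 52 passed the filter and 17 stayed under 1 TPM in every library. None of the 52 rose or fell at an adjusted p under 0.05. At an unadjusted p under 0.05, 9 were lower and 4 higher, and 15 lay lower and 7 higher without overlap of the labels. Over all genes tested these shares were 6.45% lower and 11.9% higher at that p, and 7.18% lower and 18.7% higher without overlap. With the replicate block, 2 genes of the endothelial identity list were lower and 2 higher at that p, in place of 1 and 1. The higher genes of the ligand list then numbered 2 in place of 1, and those of the pericyte list 1 in place of 0. Over all genes tested, the block gave 1495 lower and 2352 higher, in place of 1133 and 2095. The median log2 difference of the 52 vessel genes was -0.20, with 33 genes below 0 and 19 above, beside 0.16 over all genes tested.

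Of 18 endothelial identity genes, 14 were tested, and their median log2 difference was -0.08 (9 below 0, 5 above). They split in direction. *Cd93*, a lectin-like receptor, was 1.04, 1.95 and 1.30 TPM in WT and 0.318, 0.317 and 0.350 TPM in cKO (log2 difference -0.85, adjusted p = 0.180, limma). *Clec14a*, another endothelial lectin of the same family, was 0.347, 0 and 0.524 TPM in WT and 1.49, 1.70 and 1.14 TPM in cKO, the opposite direction (0.94, adjusted p = 0.173, limma). *Eng*, a TGF-beta co-receptor, was 4.71, 5.11 and 10.4 TPM in WT and 3.33, 1.62 and 4.32 TPM in cKO (-0.91, adjusted p = 0.296, limma), and its difference was -0.59 without WT replicate 3. *Tie1*, *Robo4* and *Mmrn2* were under 1 TPM in all libraries.

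Of 10 transcription factors known from endothelium, 4 were tested and all 4 were below 0, with a median of -1.97. *Erg*, which in vessels is largely restricted to endothelium, did not exceed 0.144 TPM in any library, and *Sox7*, *Tal1* and *Gata2* were also under 1 TPM throughout. *Ets1* was 61.9, 61.2 and 45.5 TPM in WT and 11.6, 7.21 and 8.43 TPM in cKO, well apart (log2 difference -2.52, standard error 0.27, adjusted p = 0.0856, limma). *Klf2*, a factor induced by blood flow, was 19.8, 83.2 and 7.16 TPM in WT and 4.01, 1.76 and 3.17 TPM in cKO (-2.65, adjusted p = 0.168, limma), and its difference was -1.75 without WT replicate 2. *Klf4* was 5.73, 2.83 and 5.59 TPM in WT and 2.72, 2.44 and 2.69 TPM in cKO (-0.62, adjusted p = 0.348, limma). *Ets1*, *Klf2* and *Fli1* are also used by T cells. Of the 8 T cell markers, 6 were lower in cKO at an unadjusted p under 0.05 and 1 was higher. The higher one was *Thy1*, the antigen of the sort (0.71, adjusted p = 0.223, limma). Among the lower ones, *Cd3e* was 83.1, 56.7 and 72.2 TPM in WT and 16.5, 12.4 and 9.13 TPM in cKO. The part of T cells in these factors was not tested.

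The blood-retina barrier list had 11 of 12 genes tested and a median of -0.07, with 7 genes below 0 and 4 above. Without overlap of the labels, 3 of its genes lay lower and 3 higher. *Slc2a1*, the glucose transporter that Mueller glia and photoreceptors use as well, was its highest gene, with 371 to 1121 TPM and overlapping labels. *Lef1*, a nuclear partner of beta-catenin that T cells also express, was 21.4, 13.7 and 16.4 TPM in WT and 7.24, 5.21 and 7.06 TPM in cKO (-1.27, adjusted p = 0.124, limma). *Abcb1a*, the efflux pump P-glycoprotein, was 4.37, 1.98 and 5.04 TPM in WT and 1.22, 0.664 and 1.13 TPM in cKO (-1.21, adjusted p = 0.164, limma). *Slc7a5*, an amino acid transporter, was 3.71, 24.5 and 4.47 TPM in WT and 2.25, 2.59 and 2.38 TPM in cKO (-1.35, adjusted p = 0.307, limma), and without WT replicate 2, which stood far above the other 5 libraries, its difference was -0.58. The genes that lay higher were chosen for naming after their values were seen. *Tjp1*, the junction scaffold ZO-1, was 32.3, 36.2 and 26.8 TPM in WT and 47.7, 68.1 and 57.9 TPM in cKO (0.84, adjusted p = 0.152, limma). The norrin receptor *Fzd4* (0.55, adjusted p = 0.351, limma) and its partner *Tspan12* (0.41, adjusted p = 0.316, limma, and 0.24 after median-of-ratios scaling) lay the same way.

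Ligands and co-receptors of the VEGF, angiopoietin, PDGF, norrin and Notch pathways had 11 of 15 genes tested and a median of -0.03. *Vegfa*, the ligand of *Kdr* and *Flt1*, was 3.85 to 30.0 TPM in WT and 5.13 to 14.7 TPM in cKO, and the labels overlapped. *Nrp2*, a co-receptor for VEGF and semaphorins, was 7.80, 5.14 and 4.16 TPM in WT and 16.3, 18.4 and 9.39 TPM in cKO (1.22, adjusted p = 0.163, limma). *Angpt1*, the activating ligand of *Tek*, was 1.86, 0.610 and 1.14 TPM in WT and 2.86, 3.28 and 1.87 TPM in cKO (0.75, adjusted p = 0.286, limma). *Angpt2*, *Flt4*, *Dll4* and *Notch4* were under 1 TPM in all libraries.

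Of 13 pericyte genes 7 were tested, with a median of 0.11 and 4 above 0. *Kcnj8*, the pore subunit of the pericyte potassium channel, was 7.08, 7.23 and 16.0 TPM in WT and 2.87, 1.36 and 4.08 TPM in cKO (-1.54, adjusted p = 0.153, limma). *Ndufa4l2* was 6.75, 10.4 and 16.8 TPM in WT and 5.66, 6.30 and 5.42 TPM in cKO (-0.78, adjusted p = 0.296, limma), and its difference was -0.47 without WT replicate 3. *Cox4i2*, a cytochrome c oxidase subunit, was 157, 139 and 158 TPM in WT and 87.1, 117 and 89.8 TPM in cKO (-0.63, adjusted p = 0.187, limma). Against these 3, *Vtn*, which with *Cox4i2* was among the highest genes of the list, was 254, 303 and 402 TPM in WT and 324, 502 and 652 TPM in cKO, overlapping. *Foxc1*, *Foxf2* and *Tbx18*, transcription factors of mural cells, were under 1 TPM in all libraries.

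Of 10 smooth muscle genes 5 were tested, with a median of -0.86. *Myl9*, a myosin light chain, was 19.3, 34.0 and 35.5 TPM in WT and 11.6, 10.3 and 11.9 TPM in cKO (-1.27, adjusted p = 0.126, limma). *Pln* (phospholamban) was 2.88, 9.29 and 4.76 TPM in WT and 1.16, 2.58 and 2.61 TPM in cKO (-1.01, adjusted p = 0.278, limma), and its difference was -0.64 without WT replicate 2. *Mylk*, the kinase that acts on myosin light chains, lay the other way, with 12.1, 13.6 and 22.1 TPM in WT and 25.0, 28.4 and 37.4 TPM in cKO (0.91, adjusted p = 0.192, limma). Fibroblast markers, which could enter with vessels, summed to 13.9 to 24.6 TPM in WT and 6.63 to 15.5 TPM in cKO. Their part in the mural values was not tested.

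**Figure D4:**
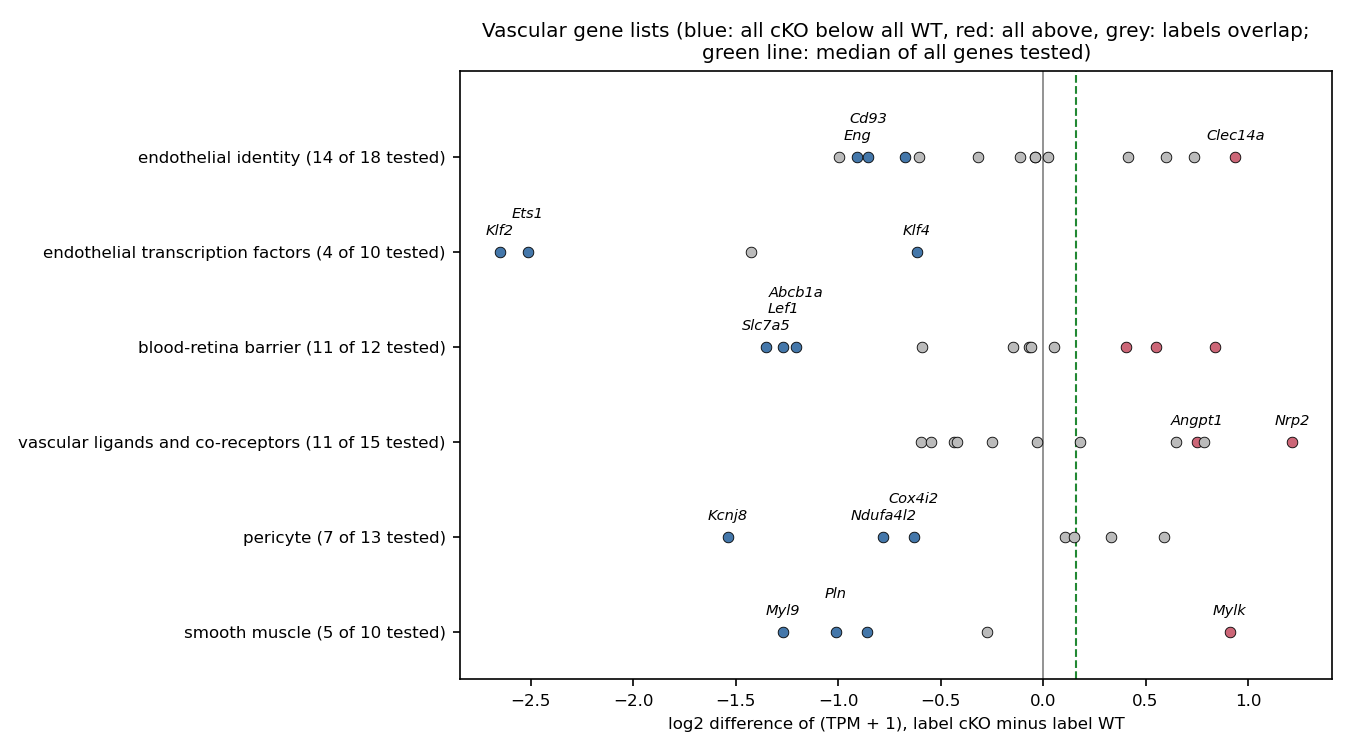
Each point is a tested gene of one of the 6 vessel gene lists, placed by its difference in log2(TPM + 1), cKO minus WT. Blue points have all cKO libraries below all WT libraries, red points all above, grey points overlap, and the green dashed line is the median of all genes tested, 0.16. The 4 transcription factors all lie below 0, and the other lists hold genes on both sides of 0.

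In the ATAC-seq comparison, 0 of 16600 regions lay within 1000 bp of an end of a member, and 0 within 3000 bp. A region lay that near for 23.9% of the 38187 genes with a position, for 51.5% of the genes tested by RNA-seq, and for 63.5% of the 3709 genes with a mean of at least 50 TPM, a limit chosen after the values had been seen. *Kdr*, *Rgs5* and *Flt1* had means above that limit. No value of accessibility at a start site can therefore be given for any member.

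Inside the gene bodies 2 regions of the comparison were found. In *Vwf* (chr6:125552948-125686679, GRCm38), the region at chr6:125572484-125573744, 19536 bp from the nearer end, had authors' log2 means of 4.57 (WT) and 3.16 (cKO), a difference of -1.41. In *Flt1* (chr5:147561604-147726438), the region at chr5:147577918-147578204, 16314 bp from the nearer end, had 2.86 (WT) and 2.22 (cKO), a difference of -0.64. These means pool the libraries of a label, so they carry no error and were not tested. A difference of at least 1 log2 unit downward was seen in 59.8% of all regions and upward in 8.73%, and of at least 2 units in 40.8% and 3.61%. The region in *Vwf* thus lay in the direction most regions had, in a gene whose RNA stayed under 1 TPM. The gene table does not say whether these regions are in introns or exons.

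Peaks called in each library reached an end of a member 6 times. In WT replicate 1 no member had such a peak (background 34.1% of genes). In WT replicate 2 there were 3 members (28.5%), in cKO replicate 1 there were 2 (10.5%), and in cKO replicate 2 there was 1 (11.4%). Among genes with a mean of at least 50 TPM, the background was 75.6%, 68.8%, 14.3% and 14.9% in this order. No member had an end peak in both libraries of a label. In WT replicate 2 a peak of 750 bp at chr5:75978225-75978974 covered all 250 bases of the *Kdr* promoter printed above. Another of 734 bp at chr5:147725669-147726402 covered all 250 bases of the *Flt1* promoter. Both lie at the starts of the VEGF receptors, and neither promoter was touched by a peak in the other 3 libraries.

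In cKO replicate 2, a peak at chr16:18776524-18776789 covered 193 of the 250 bases before the start of *Cldn5*, ending 58 bp before the gene, and no other library had a peak there. *Cldn5* RNA was lower without overlap in the libraries labelled cKO, so the only peak at its start came from the label with less RNA. In cKO replicate 1, *Flt1* had a peak at chr5:147727290-147727612, 852 bp outside its 5′ end, and *Rgs5* had one at chr1:169654747-169655019, 482 bp before the start. *Rgs5* also had a peak in WT replicate 2, at chr1:169696237-169696470, 424 bp past its far end. *Pecam1*, *Cdh5*, *Tek*, *Vwf*, *Pdgfrb* and *Acta2* had none.

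Peaks farther inside the genes were more frequent: 16 in WT replicate 1, 15 in WT replicate 2, 25 in cKO replicate 1 and 23 in cKO replicate 2. *Flt1* and *Vwf*, both long genes, held the most, and *Flt1* had 9 in cKO replicate 2. *Kdr* had 6 in cKO replicate 1, 1 in cKO replicate 2 and 0 in both WT libraries. The peak in cKO replicate 2, at chr5:75972442-75972757, overlapped none of the 6 in cKO replicate 1. No share over all genes was computed for peaks inside genes, so these counts have no background beside them. The peak lists held 76522 and 42265 peaks for WT and 55902 and 68317 for cKO. Over all mouse promoters of 300 bases, peaks overlapped 31% and 27.3% in the WT libraries and 2.27% and 2.22% in the cKO libraries. With 2 libraries a label, no test of peak presence can reach a p of 0.05, and none was made.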

How the data were processed

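Total RNA and accessible chromatin of sorted retinal cells were sequenced. The authors quantified RNA with Salmon 1.0.0 and tximport and deposited TPM per gene and library, without counts, so depth and counting error are unknown. Genes above 0 TPM were fewest in WT replicate 2, with 20942. They numbered 24963 and 24348 in WT replicates 1 and 3, and 24940, 24586 and 23764 in cKO replicates 1, 2 and 3. Per the labels' processing notes, Bowtie2 2.3.5.1 and MACS2 2.2.5 were used on GRCm38. The deposited comparison gives the authors' log2 mean of normalized reads per label and region (DiffBind), and the peak lists give positions alone. The authors' fold changes, p-values and FDRs, including those from DESeq2 1.26.0, were not used. TPM + 1 was taken to log2 and compared with limma 3.58.1 in R 4.3.3 (empirical Bayes with a trend, Benjamini-Hochberg over 17555 genes, threshold 0.05), which was tested on simulated data. The simulated differences were far larger than those of the members, so that test does not show how often changes of their size are called. Genes needed at least 1 TPM in 3 of 6 libraries. On this scale the change of low genes is understated. Whether libraries are separate pools of animals is not stated, so p-values measure the spread between libraries. Across genes, deviations of same-numbered libraries correlated at r = 0.334, 0.101 and 0.425, and the replicate number was used as a block in an alternative fit. WT replicate 1 with cKO replicate 2 gave r = 0.193, so a pairing is not clear for replicate 2. The members and lists were chosen with earlier results of these data known. From each list, genes past the threshold and up to 3 with the largest non-overlapping difference were named, and other list genes were chosen after their values were seen. Gene ends (GRCm38.p6) count on both sides, since the gene table gives no strand. Python 3.11.15, numpy 2.4.6, pandas 2.3.3 and matplotlib 3.10.9 were used.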

Additional observations from a re-analysis of the deposited data

How the results depend on the processing

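No alternative brought a member past the adjusted threshold. Under median-of-ratios scaling the median of all genes went from 0.16 to 0.01 and the genes at an unadjusted p under 0.05 from 2095 higher and 1133 lower to 1338 and 1675, and no member's direction turned. Without limma's trend, 4 genes were higher at the adjusted p. With the replicate block 1 gene was lower, and 0 to 1 when libraries were left out in turn (1 without WT replicate 2, cKO replicate 1 or cKO replicate 3). Members lower at an unadjusted p under 0.05 numbered 3 with the replicate block, 0 with a mean of at least 5 TPM, which removes *Cldn5*, and 0 to 4 with libraries left out. Their median difference then ran from -1.02 to -0.45. With the block, the genes at an unadjusted p under 0.05 went from 2095 higher and 1133 lower to 2352 and 1495. The lower genes of the transcription factor, barrier and smooth muscle lists at that p went from 2 to 3 each. Beside these and the list counts given in the report, the block changed none of the other list calls computed. With libraries left out, the log2 difference of *Kdr* ran from -0.86 to 0.061, turning without cKO replicate 1 (adjusted p = 0.973, limma). That of *Pdgfrb* ran from -0.71 to 0.079, turning without cKO replicate 1 and, at 0.044, without WT replicate 3 (adjusted p = 0.966 and 0.980, limma). The causes were not tested. Within 3000 bp, WT replicate 1 had 1 member with a peak and cKO replicate 2 had 3, and requiring the peak's centre in the window left 1 in cKO replicate 1. Of the other values under an alternative, 398 for single genes or lists and 95 for the main results did not move beyond their spread or limits, and 34 for single genes or lists moved. For ATAC-seq no paired fit could be made, since its values are pooled by label. Depth, not given, limits the members under 1 TPM most.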
